A study of Mus musculus with 2 samples.

Results

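Cycling cells made up 90 of the 2204 lymph node cells, and of 3679 cells in both libraries. They were chosen by their own transcripts: a lymph node barcode counted as a cell with at least 1811 unique molecular identifiers (UMIs, each 1 captured transcript), at least 200 genes, at most 10% mitochondrial UMIs and fewer than 2 UMIs of the B cell genes Cd79a and Ms4a1 together. A cell counted as cycling with at least 3 UMIs over 11 mitotic genes, called the rule genes here: Mki67, Top2a, Birc5, Cdk1, Ccnb1, Ccnb2, Ccna2, Ube2c, Cenpa, Cenpe and Nusap1. The cycling share was 4.08% of lymph node cells (95% exact binomial interval 3.30 to 5.00). Another 1640 cells held 0 rule UMIs and served as the comparison, while 405 cells with 1 and 69 cells with 2 were left out of both groups.

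The lymph node library came from unchallenged Foxp3Cre-YFP mice of the C57BL/6 strain, aged 5 to 8 weeks. In such mice the Foxp3 locus drives Cre recombinase and yellow fluorescent protein in regulatory T (Treg) cells. A tumour library, from B16 melanoma at day 14 in mice of the same genotype, strain and age, is used only for comparison. Both were droplet libraries of sorted cells, made with 10x Chromium 3' chemistry, which reads each transcript at its 3' end. The labels name no gate, and how many mice were pooled is not stated in them. Each tissue has 1 library, so a condition cannot be tested over samples and no p-value is given. Every interval covers counting error only, treating UMIs as independent, or cells where a share of cells is given.

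A dividing cell copies its DNA in S phase and separates the copies in mitosis. The genes for these steps are switched on in turn: E2F factors act on replication genes around the start of S phase, and the DREAM and MuvB complexes with B-MYB and FOXM1 act on mitotic genes later, through a promoter motif named the cell cycle genes homology region (CHR). In lymph nodes a fraction of Treg cells divides at rest, and effector Treg cells are known to divide more than resting ones, which keep Ccr7 and Bcl2 high.

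The cycling cells were much deeper than the rest, which limits every comparison. They held a median of 13414 UMIs (1972 to 53058), against 3896 in all cells with 0 rule UMIs. Each cycling cell was therefore matched to the 5 unused cells with 0 rule UMIs nearest in total, 450 in all. Matching did not reach equal depth: the matched cells had a median of 6032 UMIs, and 31 cycling cells were deeper than every cell with 0 rule UMIs (highest 17501). Levels are given as counts per 1000000 UMIs (CPM) of the summed counts, and the equal-depth comparison is the one in which every cell was thinned at random to 1811 UMIs. Thinned, a cycling cell showed a median of 857 genes, against 753. Doublets were kept, and whether doublets add to the depth of these cells was not tested.

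The label could be checked against markers. T cell transcripts were present in every cycling cell: Cd3g, of the T cell receptor complex, was detected in 90 of 90, and Cd4 in 64. The 6 Treg markers stood at 1750 CPM together, against 2170 CPM in the matched cells. Ikzf2, which encodes the Treg factor Helios, was found in 85 cells at 817 CPM, against 461 CPM in barcodes with at most 100 UMIs. Tnfrsf18 stood at 254 CPM, below its 364 CPM in those barcodes, so free RNA alone can give a UMI of it in a deep cell and its detection is no check of the label. Foxp3 itself was sparse in both groups, at 24 UMIs in 22 cycling cells and 55 UMIs in 47 matched cells.

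Many transcripts that define other cell types were at 0, and some were not. The cycling cells held 0 UMIs of Cd8a, of the 5 B16 melanoma markers, of the 6 neutrophil and mast cell markers and of the 5 erythroid and platelet markers. A count of 0 of 90 cells allows a share with a UMI of up to 3.33%, taken as 3 counts of the total. The other chain of the CD8 receptor, Cd8b1, had 28 UMIs in 19 cells; thinned, it was in 3.33% of cycling cells and 3.11% of cells with 0 rule UMIs. The CD8 T cell list as a whole held 319 UMIs in 44 cells, most of them of Nkg7, at 239 CPM against 126 CPM in the matched cells. The NK cell list held 2 UMIs over 7 genes, and Csf1r, Adgre1, Itgax and Rag1 were at 0. Among B cell markers, Cd79b was found in 24 cycling cells (36 UMIs) and Cd79a in 1. Thinned, Cd79b was in 6.67% of cycling cells (2.49 to 13.95) and 2.07% of cells with 0 rule UMIs (1.44 to 2.89). The germinal centre and plasma cell list was in 61 cells, at 87.8 against 92.7 CPM, with Jchain at 0, and the macrophage list in 11 cells, at 12.01 against 7.27 CPM. The thymocyte list was in 21 cells, at 22.5 against 14.5 CPM. Their part in the results was not tested. The MHC class II gene H2-Ab1 had 15 UMIs in 6 cells. Nkg7, a cytotoxic granule gene, had 290 UMIs in 34 cells, with 67.6% of them in 3 cells. In all, 39 of the 90 carried at least 1 UMI of a B cell, macrophage, dendritic or B16 marker. Values without them are given for some results only.

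Free RNA also carried the rule genes. In lymph node barcodes with at most 100 UMIs, which are mostly empty droplets, the 11 genes made up 659 CPM, against 398 CPM over all lymph node cells and 2786 CPM in the cycling cells. The part of free RNA in the cells with few rule UMIs was not tested.

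The 11 rule genes are given as a description, since they chose the cells. A cycling cell held a median of 21.5 rule UMIs, from 3 to 206, and the range was uneven: 28 cells held 3 to 9 and 62 held 10 or more. Birc5, which encodes the mitotic regulator survivin, had 555 UMIs in 68 cells. Ube2c, the ubiquitin-conjugating enzyme of the anaphase-promoting complex (APC/C), had 552 UMIs in 56 cells, and Top2a, the DNA topoisomerase that untangles sister chromatids, 537 in 64. Cenpa, the centromeric histone, was the rule gene found in most cells, 70 of 90. Mki67, the proliferation marker Ki-67, had 311 UMIs in 58 cells, or 233 CPM. The cyclin genes Ccnb2, Ccna2 and Ccnb1 had 296, 248 and 144 UMIs, the mitotic kinase gene Cdk1 252, the spindle gene Nusap1 219 and the kinetochore motor gene Cenpe 118. All 11 were detected together in 23 cells, and at least 6 in 53.

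**Figure D1:**
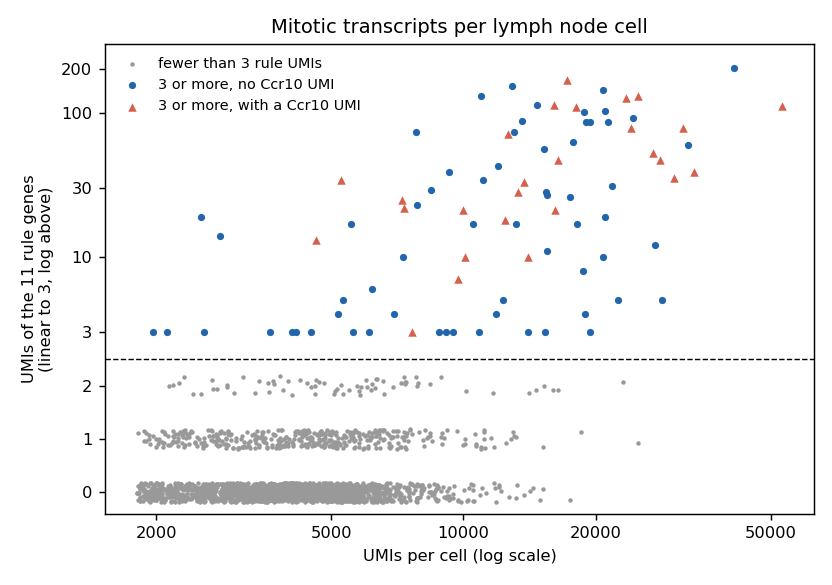
Rule UMIs of each lymph node cell (vertical axis, linear up to 3 and logarithmic above) against its total UMIs (horizontal axis, log scale), with cells of fewer than 3 rule UMIs in grey and jittered, cycling cells without a Ccr10 UMI as blue dots and those with one as red triangles. The 90 cycling cells lie above the dashed line, spread over the range of the grey cells and beyond it, and reach 206 rule UMIs.

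Cells just inside the threshold were alike to cells just outside it in the spindle list and higher in other genes. The 17 cells with exactly 3 rule UMIs held 263 CPM of the spindle list and the 69 cells with 2 held 266 CPM. For the replication list the levels were 850 and 688 CPM, for Stmn1 100 and 30.6 CPM and for Hmgb2 464 and 271 CPM. The picture given below thus rests mainly on the 62 cells with 10 or more rule UMIs, which hold 1057259 of the 1332668 UMIs of the cycling cells.

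Promoters of some cell cycle genes hold the motifs named above. Promoter sequences are from RefSeq on GRCm38.p6 and were searched from 250 bases before to 50 after the gene start, on both strands, for CHR (TTTGAA or TTCGAA), for CCAAT and for E2F (TTCCCGC or TTGGCGC). A match is a match of letters, not a shown binding site. The 150 bases before the start are printed for 4 mitotic genes that hold CHR, those whose ratio to the matched cells had the highest lower bound, with CHR and CCAAT matches on either strand in capitals. All 4 are rule genes, so they were picked by values that the rule used and are shown as a description only. Ube2c lies at chr2:164769779-164769928 on the plus strand, Top2a at chr11:99024190-99024339, Mki67 at chr7:135716380-135716529 and Cdk1 at chr10:69352913-69353062, all 3 on the minus strand.
Ube2c: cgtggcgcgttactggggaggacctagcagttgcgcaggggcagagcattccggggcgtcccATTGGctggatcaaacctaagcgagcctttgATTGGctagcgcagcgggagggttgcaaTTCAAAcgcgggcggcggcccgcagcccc
Top2a: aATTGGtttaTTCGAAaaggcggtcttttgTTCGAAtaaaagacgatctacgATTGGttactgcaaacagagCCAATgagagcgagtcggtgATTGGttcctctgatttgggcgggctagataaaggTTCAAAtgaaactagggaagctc
Mki67: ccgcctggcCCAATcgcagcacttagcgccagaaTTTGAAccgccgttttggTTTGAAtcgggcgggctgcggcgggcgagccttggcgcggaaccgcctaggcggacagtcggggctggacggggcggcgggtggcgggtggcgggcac
Cdk1: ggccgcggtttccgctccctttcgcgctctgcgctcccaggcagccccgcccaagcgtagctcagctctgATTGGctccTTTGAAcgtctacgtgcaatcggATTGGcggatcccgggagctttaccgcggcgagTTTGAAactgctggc

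The Ube2c stretch holds 1 CHR and 2 CCAAT matches, that of Top2a 3 and 4, that of Mki67 2 and 1 and that of Cdk1 2 and 2. The Mki67 stretch also holds 1 E2F match, which is not in capitals. For replication genes, 2 stretches with an E2F match are printed, with only that match in capitals: Chaf1a, a subunit of the chromatin assembly factor that loads histones behind the fork, at chr17:56040266-56040415, and Uhrf1, which guides maintenance of DNA methylation, at chr17:56303187-56303336, both on the plus strand.
Chaf1a: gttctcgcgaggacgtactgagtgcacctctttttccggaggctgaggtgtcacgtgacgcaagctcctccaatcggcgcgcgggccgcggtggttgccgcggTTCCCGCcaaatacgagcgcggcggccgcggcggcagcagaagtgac
Uhrf1: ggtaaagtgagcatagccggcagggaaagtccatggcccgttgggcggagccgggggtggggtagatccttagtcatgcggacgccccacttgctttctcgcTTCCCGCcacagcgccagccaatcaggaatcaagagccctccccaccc

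CHR stood in 30 of the 38 spindle and kinetochore genes with a promoter in the table (78.9%), in 11 of 18 APC/C and mitotic kinase genes (61.1%) and in 6 of 29 replication genes (20.7%). It stood in 17% of the tested genes with a promoter and in 21.7% of all genes with one. E2F showed the other pattern, in 69% of replication genes and 15.8% of spindle genes, against 15.3% of tested and 7.79% of all genes. CCAAT was frequent in both, at 76.3% of spindle and 65.5% of replication genes, against 43.4% of tested genes. Clustered histone genes did not share the pattern of the replication genes: CHR stood in 8 of 14 (57.1%) and E2F in 1 of 14 (7.14%). Among rule genes CHR stood in 6 of 10 and E2F in 3 of 10.

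Across the transcriptome, 994 of 8441 tested genes (at least 20 UMIs over both groups) were at least 2-fold higher in the cycling cells than in the matched cells (11.8%), and 438 were at least 2-fold lower (5.19%). The median log2 ratio over all tested genes was 0.16. Thinned and against all cells with 0 rule UMIs, the shares were 15.4% and 8.47% of 7711 genes. Gene lists are read against these backgrounds. A sparse gene can reach 20 UMIs through the group where it is high, so counts of higher or lower genes in a list are a description. A ratio is taken of CPM, its range in brackets is the 95% counting interval, and a gene with no UMI in the matched cells is set against a floor of 3 UMIs over the group and written as at least that fold.

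Genes of the spindle and kinetochore, which move chromosomes, had the highest median of the 25 lists outside the rule genes. All 44 measured genes of the 45 listed were at least 2-fold higher, with a median log2 ratio of 5.27, and 4.60 thinned. Of these, 8 had no UMI in the matched cells and passed the count filter through the cycling cells alone. Several of them are known to be co-regulated with the rule genes and are not independent of the choice of cells. Cenpf, a kinetochore protein gene, had 184 UMIs against 1 and was 399-fold higher, with a lower bound of 70.7-fold. Cdca3, a mitotic entry gene, had 254 UMIs against 4 and was 138-fold higher (53.1 to 509). Plk1, the polo-like mitotic kinase, had 101 UMIs against 0 (at least 73.0-fold), the spindle motor gene Kif11 78 against 0 (at least 56.4-fold) and the kinetochore gene Nuf2 68 against 0 (at least 49.2-fold). Tpx2, which activates Aurora A, had 115 against 1, and the smallest ratio was that of the checkpoint gene Bub3, at 2.12-fold.

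Of the 21 genes of APC/C control and mitotic kinases, 20 were at least 2-fold higher (median log2 4.12, thinned 3.16). Cdc20, the APC/C activator, had 202 UMIs against 7 and was 62.6-fold higher (29.8 to 158), and Ccnf 47 against 0 (at least 34.0-fold). The phosphatase gene Cdkn3 had 108 UMIs against 1, and the transcription factor genes Mybl2 (B-MYB) and Foxm1 50 against 1 and 22 against 1. The exception was Pttg1, which encodes securin, at 79 against 162 UMIs, a ratio of 1.06.

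Replication genes were higher as well, by less. Of 37 measured genes of licensing and the replication fork, 36 were at least 2-fold higher (median log2 2.71), and the remaining gene, the GINS subunit Gins1, stood at 1.88-fold. The listed clone name 2810417H13Rik, the PCNA-associated factor gene, had 903 UMIs against 6 and was 326-fold higher (149 to 892). Clspn, a fork checkpoint gene, had 69 UMIs against 1. Chaf1a had 62 against 2, a 67.2-fold ratio (17.9 to 568), and the helicase activator gene Mcm10 30 against 0 (at least 21.7-fold). The licensing helicase genes stood lower, Mcm5 at 7.54-fold, Mcm3 at 6.54-fold and Mcm2 at 3.16-fold, and the sliding clamp gene Pcna at 5.58-fold, with 360 UMIs against 140.

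In nucleotide synthesis 11 of 20 genes were at least 2-fold higher and 0 lower (median log2 1.14). Those for DNA precursors led. Rrm2, the regulated subunit of ribonucleotide reductase, had 386 UMIs against 13 and was 64.4-fold higher (37.2 to 122), thymidine kinase Tk1 19.4-fold (12.2 to 32.5), Rrm1 14.7-fold (9.24 to 24.4) and thymidylate synthase Tyms 12.2-fold (8.75 to 17.3). Among genes of purine synthesis in the list, Paics stood at 2.40-fold, Impdh2 at 1.72-fold, Atic at 1.25-fold and Gart at 0.99-fold.

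Thinned, the medians of the replication and nucleotide lists were 2.40 and 1.02. They were smaller in the small sets of closely matched cells. Where only the 26 cycling cells with an unused cell within 10% of their depth were used, each against that cell, the medians were 1.40 and 0.33. With the 15 whose 5 matched cells all lay within 10%, they were 1.56 and 0.15. The 26 cells include 11 with 10 or more rule UMIs, against 62 of the 90.

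Clustered histone genes were high in some of the cells. Of 33 listed genes only 17 had enough UMIs to be measured, and 16 of these were at least 2-fold higher (median log2 3.53, thinned 2.07). Among the 17, 3 had no UMI in the matched cells and passed the count filter through the cycling cells alone. Hist1h2ap had 2917 UMIs against 39, a ratio of 162 (118 to 229). It was found in 62 of 90 cycling cells, with a median of 3 and a highest count of 177 UMIs, and in 34 of 450 matched cells with at most 3. The linker histone gene Hist1h1b had 87 UMIs against 0 (at least 62.9-fold) and Hist1h2ae 135 against 3. Near-identical copies in these clusters can share or lose reads, and most such transcripts lack a poly(A) tail, which 3' libraries depend on, so the ratios of single histone genes are uncertain.

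Chromatin and microtubule genes include 3 of the markers given for these cells. Stmn1, whose product stathmin destabilises microtubules, had 1570 UMIs in 76 cycling cells, with a median of 13 and a range of 0 to 64 UMIs per cell. In the matched cells it had 68 UMIs in 53 of 450 cells, at most 6 per cell. It was 50.1-fold higher (39.3 to 64.8), and thinned it was found in 67.8% of cycling cells (57.1 to 77.2) and 3.17% of cells with 0 rule UMIs (2.38 to 4.14). In barcodes with at most 100 UMIs it stood at 310 CPM. Stmn1 was thus low in nearly all cells with 0 rule UMIs and high in most, not all, of the cycling ones. Hmgb2, a chromatin protein gene, had 4038 UMIs in 86 cells (median 28.5, highest 185) and was 17.1-fold higher (15.6 to 18.8). Its background was broader: 243 of the 450 matched cells held it. On mm10, in the GENCODE M21 annotation, Stmn1 lies at chr4:134468320-134473843 on the plus strand, Hmgb2 at chr8:57511907-57515999 on the plus strand and Ccr10 at chr11:101172997-101175443 on the minus strand. The lamin gene Lmnb1 had 420 UMIs in 68 cells and was 14.5-fold higher (11.1 to 19.2).

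Of the 27 genes of the chromatin and condensin list 24 were at least 2-fold higher and 0 lower (median log2 1.98). The condensin gene Ncaph had 68 UMIs against 2, and Asf1b, a histone chaperone gene, 255 against 21 (26.3-fold, 16.9 to 43.3). In the tubulin list 7 of 9 were higher, among them Tuba1c at 9.18-fold (6.83 to 12.5), Tubb4b at 5.17-fold (4.43 to 6.05) and Tuba1b at 4.92-fold (4.56 to 5.32). Tubb2a was lower, at 7 UMIs against 43, and 1 gene of the list passed 2-fold neither way.

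Genes that lead cells from G1 into S phase were split. In the G1 list 6 of 19 were at least 2-fold higher and 1 lower (median log2 0.64, but -0.28 in the 26 closely matched cells). The cyclin E genes were high, Ccne1 at 56 UMIs against 3 (40.5-fold, 13.2 to 202) and Ccne2 at 22 against 2. The CDK inhibitor genes Cdkn2c and Cdkn2a were higher too, at 12.6-fold (8.50 to 19.2) and 10.8-fold (4.08 to 36.3). Ccnd2 and Ccnd3, the D cyclin genes with most UMIs, stood at 0.56-fold and 1.27-fold, and the antiproliferative gene Btg1 at 0.38-fold. Of 12 measured genes of the DNA damage and p53 list 6 were higher, among them the recombination genes Rad51ap1 (73 UMIs against 4) and Rad54l (50 against 6), whereas the p53 targets Mdm2 and Bax stood at 1.33-fold and 1.26-fold. That list's median, 0.96, was -0.23 thinned. Myc stood at 26 UMIs against 114, 2.02-fold lower (1.31 to 3.23).

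The 90 cells differed among themselves in which step their transcripts marked. Replication list UMIs ranged from 0 to 9.51 per 1000 UMIs of the cell (median 3.04), and spindle list UMIs from 0 to 13.5 (median 2.03). Set against the 95th percentile of the cells with 0 rule UMIs, 1.28 and 0.70 per 1000, 51 cells were above both, 9 above replication only, 13 above spindle only and 17 above neither. All 17 of the last held 3 to 9 rule UMIs. In 53 cells replication UMIs outnumbered spindle UMIs, and in 33 the reverse held. Over the 90 cells, which share a library, Spearman's rho between the measures was 0.45 and Pearson's r 0.15. Within the 62 cells with 10 or more rule UMIs rho was -0.14.

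**Figure D2:**
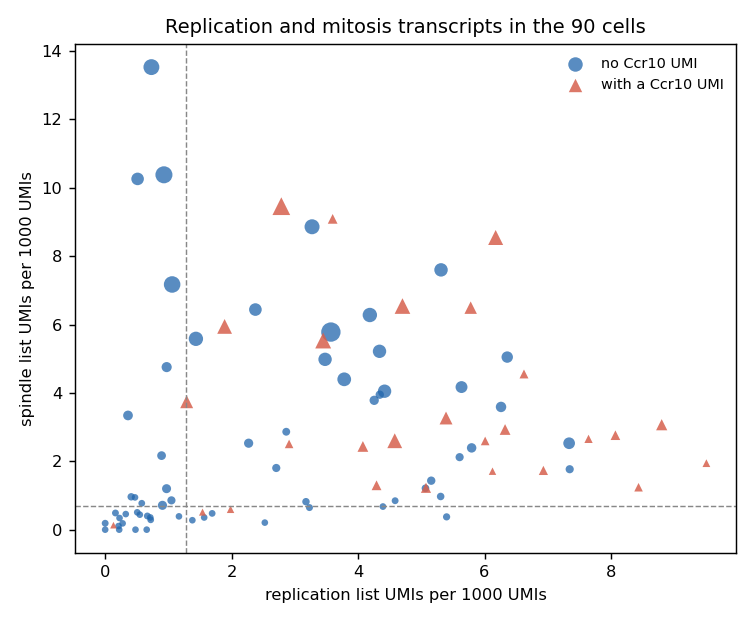
Replication list UMIs (horizontal axis) and spindle list UMIs (vertical axis) per 1000 UMIs of each of the 90 cycling cells, with marker size rising with rule UMIs and red triangles for cells with a Ccr10 UMI. Dashed lines mark the 95th percentile of cells with 0 rule UMIs, 1.28 and 0.70 per 1000, and 51 cells lie above both.

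Splitting the cells by which list was larger used those genes, so the genes of both lists are described only. On the spindle side Cenpf stood at 311 against 34.3 CPM, Ube2c at 896 against 127 CPM and Cdc20 at 323 against 50.1 CPM. On the replication side Ccne1 stood at 63.6 against 8.02 CPM, Mcm2 at 113 against 26.1 CPM and Pcna at 360 against 132 CPM, and Ung, which removes uracil from DNA, had 84 UMIs against 0. Ccr10, in neither list, stood at 142 CPM on the replication side and 42.1 CPM on the spindle side (116 and 21 UMIs), and was detected in 18 of 53 and 8 of 33 cells. The 3 cells with most Ccr10 were all on the replication side with 60 of its UMIs, and without them it stood at 73.5 CPM there.

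Ccr10, which encodes a receptor for skin and mucosal chemokines and was not part of the rule, marked a subset. It had 143 UMIs in 27 of the 90 cycling cells, from 1 to 30 with a median of 3 in those that held it, and 10 cells held 5 or more. The 3 cells with most held 42.0% of these UMIs. In the matched cells it had 4 UMIs in 3 of 450 cells, which makes 77.5-fold (29.6 to 288). Against all cells with 0 rule UMIs, of which 15 of 1640 held it, the ratio was 24.2-fold (16.3 to 36.9), and thinned it was 14.8-fold, so its size depends on the compared cells and on depth, with 13 against 16 UMIs left after thinning. In barcodes with at most 100 UMIs it stood at 18.1 CPM, above the 4.44 CPM of cells with 0 rule UMIs and below the 107 CPM of the cycling cells.

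The cycling cells held 76.1% of all lymph node Ccr10 UMIs (143 of 188), while they held 12.5% of the UMIs of all cells. Of the 52 lymph node cells with a Ccr10 UMI, 27 were cycling (51.9%, 37.6 to 66.0), against 63 of the 2152 without one (2.93%, 2.26 to 3.73). With every cell thinned before both were read, 6 of 26 (23.1%, 8.97 to 43.6) and 41 of 2178 (1.88%, 1.35 to 2.55) were cycling. These intervals treat the cells of 1 library as independent draws, and Ccr10 was a marker given for these cells, so the shares are a description. Ccr10 was found in 25 of the 62 cells with 10 or more rule UMIs and in 2 of the 28 with 3 to 9. Cells with Ccr10 had a median of 16031 UMIs and those without 12913.

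Within the cycling cells, those with Ccr10 held more of several effector genes and less of several resting T cell genes. The calcium-binding protein gene S100a6 stood at 1945 CPM in the 27 cells with Ccr10 and at 463 CPM in the 63 without (4.20-fold, 3.73 to 4.74), and was found in 25 and 34 of them. The galectin genes Lgals1 and Lgals3 were 2.55-fold (2.39 to 2.72) and 4.11-fold (2.78 to 6.17) higher. Granzyme B (Gzmb) was 5.46-fold higher (3.26 to 9.54) but rested on few cells, 7 of 27 and 6 of 63, with 31 of 63 UMIs in 1 cell. Hbs1l, a ribosome rescue gene, was 6.45-fold higher (3.79 to 11.5), with 67 UMIs against 18. The 15 UMIs of the MHC class II gene H2-Ab1 all lay in 6 of the cells with Ccr10, with 0 in the 63 without. Whether doublets have a part in this split was not tested.

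The survival gene Bcl2 was 11.3-fold lower in the cells with Ccr10 (5.81 to 25.1), with 9 UMIs in 3 cells against 176 in 33. Tcf7, which maintains resting T cells, stood at 16.4 against 141 CPM and the inhibitory receptor gene Pdcd1 at 12.3 against 54.4 CPM. Tbc1d4, of glucose transporter traffic, had 3 UMIs against 68. Cell cycle state differed with Ccr10 too: cells with Ccr10 had a median of 35 rule UMIs against 17, replication list UMIs of 5.07 against 1.57 per 1000 and spindle list UMIs of 2.66 against 1.20 per 1000. Ccne1 was 3.12-fold (1.76 to 5.69) and Rrm2 2.20-fold (1.79 to 2.71) higher, Mki67 1.35-fold (1.07 to 1.70), and Ube2c stood at 0.81-fold (0.67 to 0.97). Among Treg genes, Ikzf2 stood at 0.93-fold (0.82 to 1.05), while some others were lower in the cells with Ccr10. Lrrc32 had 1 UMI against 20 and Gpr83 2 against 43. Nrp1 stood at 0.25-fold (0.14 to 0.42), Izumo1r at 0.36-fold (0.28 to 0.45) and Ikzf4 at 0.48-fold (0.29 to 0.78). The intervals of Il2ra (0.91-fold), Ctla4 (1.13-fold), Tnfrsf18 (0.83-fold) and Foxp3 (0.71-fold) included no difference.

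Since 25 of the 27 cells with Ccr10 held 10 or more rule UMIs, against 37 of the 63 without, the split was repeated within those 62 cells, a choice made after seeing the data. There Bcl2 was 8.80-fold lower (4.07 to 22.6), with 7 UMIs in 2 cells against 77 in 16, and Tcf7 8.46-fold lower (3.91 to 21.8). S100a6 was 3.73-fold (3.27 to 4.26) and Lgals1 2.37-fold (2.21 to 2.54) higher, Rrm2 1.72-fold (1.40 to 2.13) higher, and Mki67 stood at 0.99-fold (0.79 to 1.25).

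Several of these genes also differed with Ccr10 outside the cycling cells. In the 25 lymph node cells with a Ccr10 UMI and fewer than 3 rule UMIs, S100a6 stood at 1217 CPM, S100a4 at 1231 CPM, Gzmb at 133 CPM and Icos at 472 CPM. In the 2089 remaining cells the same genes stood at 129, 109, 2.39 and 123 CPM. Bcl2 stood at 113 CPM in the 25 cells and 511 CPM in the 2089. Other genes followed another pattern. Izumo1r stood at 181 against 500 CPM within the cycling cells and at 718 against 810 CPM outside them. Ikzf2 was similar within the cycling cells, at 780 against 839 CPM, and higher with Ccr10 outside them, at 1384 against 701 CPM. Cycling cells without Ccr10 lay between for S100a6, S100a4 and Gzmb, at 463, 473 and 23.7 CPM, and for Bcl2, at 208 CPM.

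Core Treg genes were higher than 2-fold in no case and lower in a few. Of 15 measured genes 0 were at least 2-fold higher and 3 lower (median log2 -0.018). Ikzf2 had 1089 UMIs against 1956 and stood at 1.21-fold (1.12 to 1.30), with a median of 10 UMIs per cycling cell. Foxp3 stood at 0.95-fold, with an interval from 0.56 to 1.56 that leaves its direction unresolved at this depth. Ctla4, an inhibitory receptor of Treg suppression, stood at 1.67-fold (1.39 to 2.01), Il2ra, the high-affinity IL-2 receptor subunit, at 0.63-fold (0.53 to 0.76), and Tnfrsf18 (GITR) at 0.74-fold (0.65 to 0.84). The 3 lower genes were Lrrc32, which presents latent TGF-beta, at 3.84-fold lower (2.44 to 6.36), Izumo1r (folate receptor 4) at 2.22-fold (2.01 to 2.44) and Gpr83 at 2.16-fold (1.56 to 3.05). Thinned, the list median was -0.014. In the small sets of closely matched cells it was 0.28 (26 cells) and 0.70 (15 cells).

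Effector Treg genes were higher in part. Of 19 measured genes 9 were at least 2-fold higher and 1 lower (median log2 0.86, thinned 1.36). S100a6 had 1339 UMIs in 59 cycling cells against 329 in 87 matched cells and was 8.83-fold higher (7.82 to 9.99). Lgals1 had 3847 UMIs in 84 cells, at a median of 19 and a highest count of 238, and was 6.70-fold higher (6.28 to 7.14). S100a4 was 5.07-fold (4.48 to 5.74) and the receptor gene Klrg1, found in 15 cells, 4.74-fold (3.19 to 7.15) higher. Prdm1, which encodes Blimp-1, had 23 UMIs against 13 (3.84-fold, 1.86 to 8.25), and Icos, a costimulatory receptor, 324 against 309 (2.27-fold, 1.94 to 2.67). The lower gene was Bhlhe40, at 7 UMIs against 32, with an interval (0.18 to 1.09) that includes no difference. With closer depth the median was larger, 1.82 (26 cells) and 2.06 (15 cells), and it was 1.64 without the 23 deepest cycling cells.

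Among mediators of suppression, Gzmb and Fgl2 were higher. Of 11 measured genes 2 were at least 2-fold higher and 0 lower (median log2 0.22): Gzmb, with 83 UMIs in 13 cells (15.0-fold, 8.15 to 30.2), together with Fgl2, whose secreted product inhibits T cells, at 58 UMIs in 23 cells (7.86-fold, 4.46 to 14.7). Ebi3, a subunit of IL-35, stood at 1.73-fold (1.13 to 2.63). Il10 had 1 UMI and Tigit 2, which allows no comparison. Pdcd1 stood at 0.92-fold (0.65 to 1.29). Among homing receptors besides Ccr10, Ccr2, a receptor for inflammatory chemokines, was 4.75-fold (3.26 to 7.02), Fut7, a fucosyltransferase gene of leukocyte homing, 4.34-fold (2.48 to 7.83) and Cxcr6 2.85-fold (1.92 to 4.24) higher. Of 19 measured homing genes 6 were higher and 3 lower (median log2 0.59).

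Genes of resting T cells were lower in part. Of 17 measured genes 0 were at least 2-fold higher and 8 lower (median log2 -0.97, thinned -0.91). Bcl2 was found in 36 of 90 cycling cells and 349 of 450 matched cells, 3.24-fold lower (2.77 to 3.80). Satb1, a chromatin organiser, was 6.23-fold lower (4.08 to 9.98), Igfbp4 6.47-fold (4.95 to 8.60) and Ccr7, the lymph node entry receptor, 2.09-fold (1.71 to 2.58). Tcf7 stood at 0.70-fold (0.57 to 0.86). The list median was -0.017 with 26 closely matched cells and -0.55 with 15. Ly6c1, outside the list, was 11.4-fold lower (6.25 to 23.0).

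Interferon-stimulated genes were lower by the sums, but not in the small sets of closely matched cells. Of 18 measured genes 0 were at least 2-fold higher and 10 lower (median log2 -1.10, thinned -0.68). Ifit1 had 8 UMIs against 173 (9.97-fold lower, 4.95 to 23.5) and Isg15 29 against 272 (4.32-fold lower, 2.94 to 6.58). In the matched cells 45.7% of Ifit1 UMIs lay in 10 of the 450 cells. With closely matched depth the list median was -0.012 (26 cells) and -0.093 (15 cells).

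Signalling lists had medians below 0 against the matched cells. The TNF receptor superfamily had 0 of 10 genes higher and 2 lower (median log2 -0.50), the T cell receptor response list 0 of 17 and 2 (-0.40), and the IL-2 and common gamma chain list 0 of 18 and 3 (-0.47). Thinned, these medians kept their sign, at -0.46, -0.18 and -0.057. In the 15 closely matched cells they had the opposite sign, at 0.73, 0.34 and 0.30, and in the 26 they were -0.090, 0.22 and -0.012. Tnfrsf4 (OX40) stood at 0.70-fold (0.63 to 0.77) but at 1.52-fold thinned. The cytokine feedback gene Socs1 was 2.17-fold lower (1.65 to 2.87), and 1.0-fold thinned. In the list of inhibitory and costimulatory receptors 1 of 13 was higher (Icos) and 1 lower, Cd27 at 2.07-fold lower (1.79 to 2.39), with a median of -0.22.

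**Figure D3:**
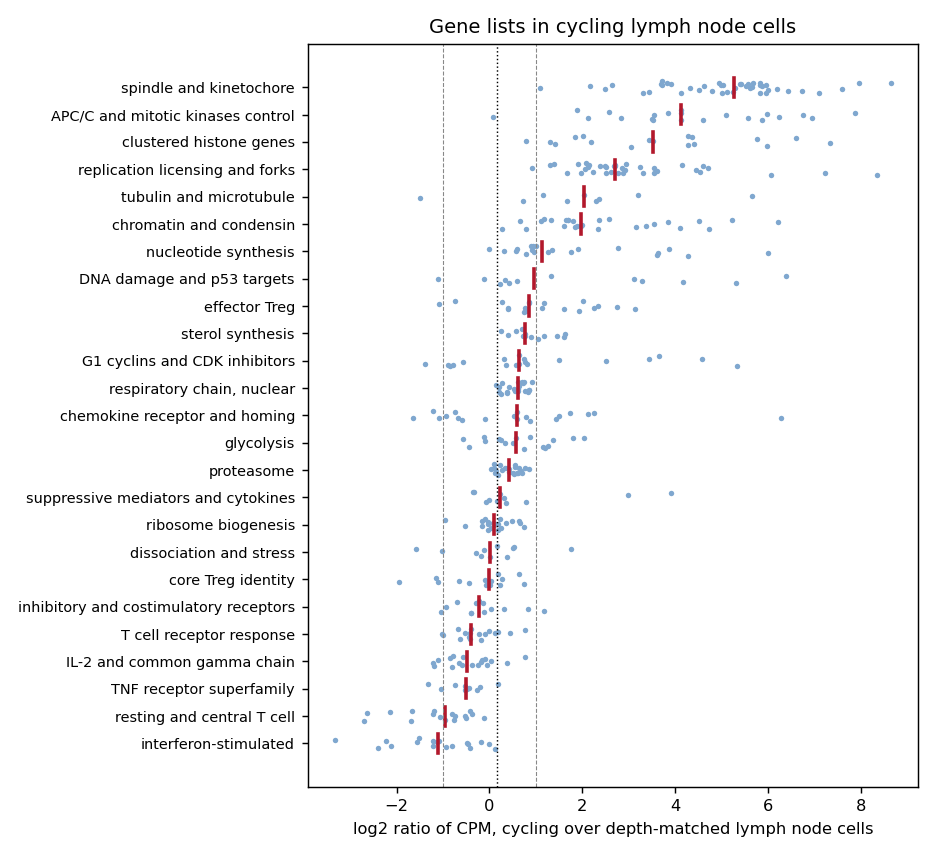
Log2 ratio of CPM in the cycling cells over the depth-matched lymph node cells for each measured gene (dots) of 25 lists, with the median of each list as a red bar, 2-fold as dashed lines and the median of all tested genes, 0.16, as a dotted line. Cell cycle lists lie to the right, up to a median of 5.27 for spindle and kinetochore, and interferon-stimulated genes lie lowest at -1.10.

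Metabolic lists differed by small amounts. In glycolysis 6 of 17 genes were at least 2-fold higher and 0 lower (median log2 0.57), with Tpi1 at 4.11-fold (3.39 to 4.98) and Gapdh at 2.22-fold (2.10 to 2.35). None of the 22 respiratory chain genes, 23 proteasome genes or 21 ribosome biogenesis genes passed 2-fold either way, with medians of 0.62, 0.43 and 0.09. In sterol synthesis 5 of 14 were higher (median 0.77), among them Idi1 at 27 UMIs against 19 and Cyp51 at 29 against 23; without the cells carrying other markers the ratio of Cyp51 was log2 -0.078. In the dissociation and stress list 1 of 11 was higher, the chaperone gene Hsp90aa1 at 3.37-fold (3.04 to 3.73), and 2 lower, the immediate-early genes Fos and Jun, with Jun at 12 UMIs against 78 and a list median near 0. The nuclear noncoding RNA Malat1 was present in every cell and 2.75-fold lower (2.70 to 2.82) by the sums. Its log2 ratio was -1.46 there, -1.505 thinned and -0.47 in the small sets of closely matched cells.

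Levels differed with the number of rule UMIs, and not in the same way for all genes. Stmn1 stood at 20.1, 26.01 and 30.6 CPM in cells with 0, 1 and 2 rule UMIs, at 309 CPM with 3 to 9 and at 1405 CPM with 10 or more. S100a6 was already graded below the threshold, at 121, 202 and 309 CPM, and then at 432 and 1154 CPM. Igfbp4 went the other way, at 231, 218, 158, 72.6 and 35.9 CPM. Bcl2 stood at 367 CPM with 3 to 9 (299 to 446) and 79.4 CPM with 10 or more (63.4 to 98.4). Ikzf2 showed no such order, at 666, 821, 954, 831 and 813 CPM. The classes also differ in depth, with medians of 3896, 4401, 5269, 8212 and 15454 UMIs, and the part of depth in these levels was not tested.

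**Figure D4:**
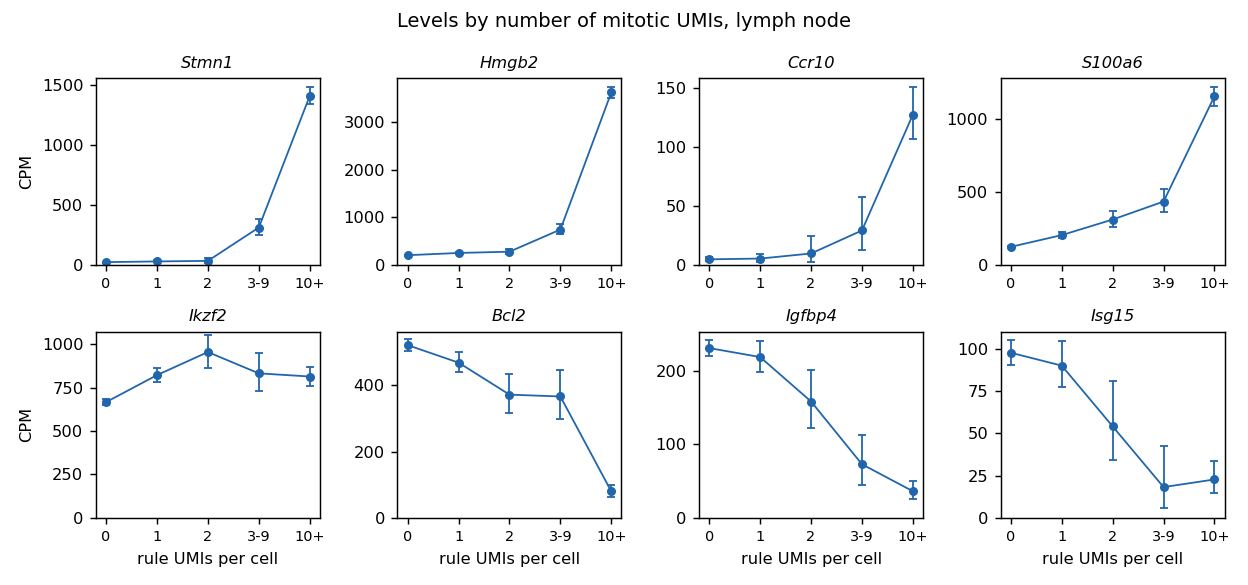
CPM of 8 genes (vertical axes, each from 0) in lymph node cells grouped by their rule UMIs (horizontal axes), with exact Poisson 95% intervals that cover counting error only. Stmn1 and Hmgb2 step up at 3 or more. Ccr10 is at 9.43 CPM with 2 rule UMIs (2.57 to 24.1), 29.05 CPM with 3 to 9 (12.5 to 57.2, from 8 UMIs) and 128 CPM with 10 or more. S100a6 is graded from 121 to 1154 CPM, and Igfbp4 and Bcl2 go down while Ikzf2 stays between 666 and 954 CPM.

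Tumour cells met the rule far more often. By the same filters, with a UMI minimum of 3834 set from that library, 783 of 1475 tumour cells were cycling (53.1%, 50.5 to 55.7), against 4.08% in lymph node. Thinned to 1811 UMIs per cell, the shares were 22.85% (20.7 to 25.1) in tumour and 2.13% (1.57 to 2.83) in lymph node. Thinning only removes UMIs, so the 47 thinned lymph node cells had to be among the 90. Within cycling cells the rule genes took similar shares of the rule UMIs: Birc5 15.0% in lymph node and 14.9% in tumour, Ube2c 14.9% and 17.1%, Top2a 14.5% and 11.7%.

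Cycling and other cells were compared in the same way within each tissue, here against all cells with 0 rule UMIs, since 229 such tumour cells do not allow matching. In lymph node 1090 of 9502 genes were at least 2-fold higher (11.5%) and 778 lower (8.19%), and in tumour 1502 of 10717 (14%) and 456 (4.25%). The cell cycle lists were higher in both: spindle and kinetochore genes had medians of 5.52 in lymph node and 3.82 in tumour, and replication genes 2.97 and 2.22. Stmn1 was 58.7-fold higher (49.4 to 70.3) in lymph node and 12.03-fold (9.72 to 15.1) in tumour. Its level in cells with 0 rule UMIs was 20.1 CPM in lymph node and 57.6 CPM in tumour.

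Outside the cell cycle most lists had medians of the same sign in both tissues, such as resting T cell genes at -1.16 in lymph node and -0.77 in tumour and interferon-stimulated genes at -1.26 and -0.70. The medians of the effector Treg, homing and suppressive lists had opposite signs. The effector Treg list had a median of 1.06 in lymph node, with 11 genes at least 2-fold higher and 0 lower, and of -0.84 in tumour, with 1 higher and 5 lower. S100a6 was 8.28-fold higher (7.60 to 9.04) in lymph node and 1.66-fold lower (1.59 to 1.73) in tumour, where cells with 0 rule UMIs already held 1830 CPM, against 121 CPM in lymph node. Gzmb was 21.7-fold higher (13.2 to 37.4) in lymph node, from 20 UMIs in cells with 0 rule UMIs, and 2.29-fold lower (2.18 to 2.40) in tumour. Icos was 2.09-fold higher (1.83 to 2.38) and 2.02-fold lower (1.87 to 2.17). Igfbp4, lower in cycling lymph node cells, had 176 UMIs in cycling tumour cells and 1 in those with 0 rule UMIs. Ribosome biogenesis genes had medians of 0.29 and 0.89, with 0 of 22 and 10 of 22 at least 2-fold higher. Ccr10 had 7 UMIs in the cycling tumour cells and 0 in the 229 with 0 rule UMIs. Tissue, library and depth cannot be told apart in these differences, and none was tested.

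**Figure D5:**
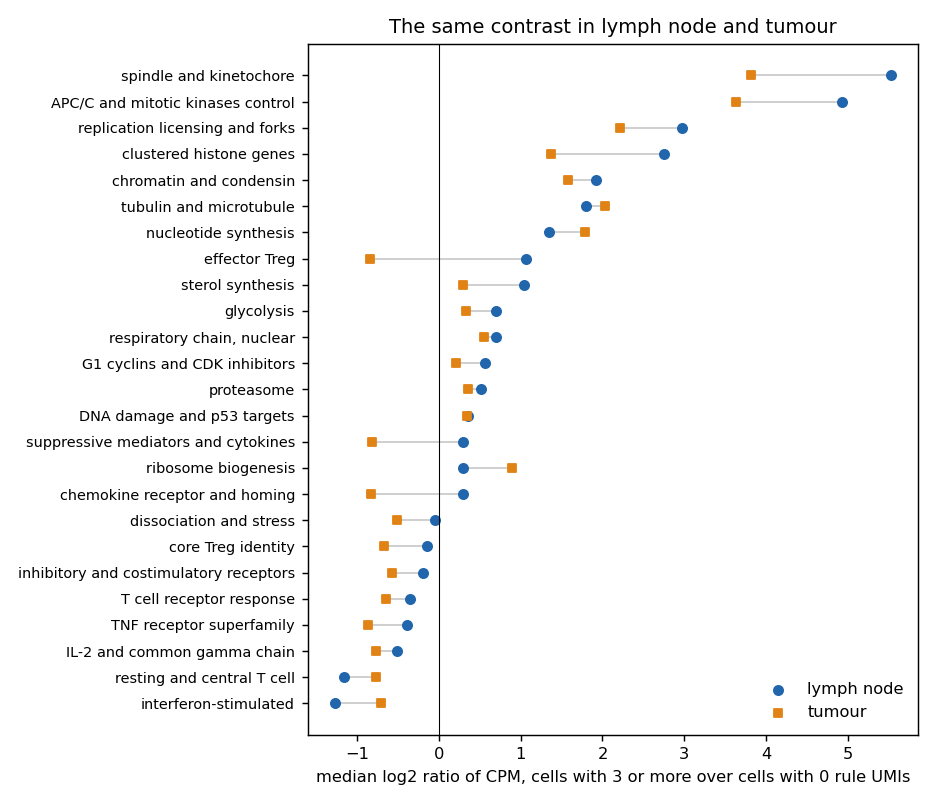
Median log2 ratio of CPM, cells with 3 or more over all cells with 0 rule UMIs, for 25 gene lists in lymph node (blue circles) and tumour (orange squares), joined by a line per list. Cell cycle lists lie to the right of 0 in both tissues, and the effector Treg list stands at 1.06 in lymph node and -0.84 in tumour.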

How the data were processed

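The deposited values are whole-number UMI counts per gene and cell barcode, made by the authors with Cell Ranger and the mm10 genome, per the submitters' processing notes; its version was not given in the sources used. The lymph node matrix holds 14000036 UMIs and the tumour matrix 23618037. Cells were called with a UMI minimum equal to 10% of the 99th percentile among the 3000 largest barcodes of each library. In all, 1 cell barcode occurs in both libraries, and 0 cycling cells carry it. Doublets were kept and no doublet caller was run.

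Counts were summed over cells and compared as CPM ratios, with exact conditional binomial intervals for ratios, exact Poisson intervals for levels and Clopper-Pearson intervals for shares, at 95%. A gene was tested with at least 20 UMIs over both groups and called at 2-fold. Genes without UMIs in the compared group entered list medians at their bound. The cycling cells, lists and rules were chosen with earlier results of these data known. Named genes were the rule genes, the 6 given markers, 17 Treg and resting genes, 12 genes in each direction ranked by the near bound of the ratio's interval, at most 4 per list ranked likewise and at most 2 per marker list; some are not reported here. The list genes 2810417H13Rik, Mybl2, Foxm1, Pttg1, Gins1, Mcm2, Mcm3, Mcm5, Pcna, Gart, Atic, Paics, Impdh2, Tubb2a, Bub3, Ccnd2, Ccnd3, Btg1, Mdm2, Bax, Bhlhe40 and Fos fall outside that rule and were chosen after their values were seen. Matching in tumour, as first planned, was not possible (229 cells with 0 rule UMIs for 783), so all such cells were used in both tissues. Alternatives covered the compared cells, thinning, the rule threshold, the UMI minimum, deep cells, other markers, scaling, per-cell weight and the count filter. Of 27998 identifiers 27645 were found in GENCODE M21, which gave gene coordinates. Scripts were tested on simulated data and used Python 3.11.15, numpy 2.4.6, scipy 1.17.1, pandas 2.3.3 and matplotlib 3.10.9.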

Additional observations from a re-analysis of the deposited data

Results flagged for a closer look

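For 4 genes the cycling cells differed from cells with 0 rule UMIs in opposite directions in the tissues; the difference between tissues was not tested, since each has 1 library. The log2 ratio of Icos was 1.06 in lymph node and -1.01 in tumour. For Ccr2 it was 2.52 and -1.35, and for Gzmb 4.44 and -1.19. Igfbp4 went the other way, at -2.41 in lymph node and 4.30 in tumour, where the compared cells held 1 UMI.

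Rule UMIs were also present below the UMI minimum for cells. Of 398 lymph node barcodes with at least 500 and fewer than 1811 UMIs, 4 held 3 or more rule UMIs (1.0%, exact binomial interval 0.27 to 2.55), with a median of 1438 UMIs and up to 26 rule UMIs. Ikzf2 was found in all 4, Stmn1 in 2 and Ccr10 in 1.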

How the results depend on the processing

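Of 879 values of the 88 named genes past 2-fold, over 14 alternative settings and where at least 20 UMIs remained, 875 kept their direction and 798 stayed past 2-fold. These genes include the 11 rule genes, whose direction the rule set, and genes ranked by their ratios in the same cells. The counts are thus a description. The 4 exceptions by log2 ratio were Rsad2 (0.77) and Sfi1 (0.072) thinned, Cyp51 (-0.078) without cells with other markers, and Tnfrsf25 (0.78) with 5 close matched cells. Of the list medians 311 moved by less than 1.5-fold and 32 by more. Why values moved was not separated: the cause was not tested, except that stricter filters and fewer cells leave fewer genes to test.

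Against all cells with 0 rule UMIs, 778 genes were lower, and list medians were 4.92 for APC/C, 2.76 for histones and 0.35 for DNA damage. Thinned, they were 4.60 for spindle, 3.16 for APC/C, 2.07 for histones and -0.23 for DNA damage. The histone median was 2.585 with 2 or more rule UMIs and 2.57 without the 23 deepest cells, where the effector Treg median was 1.64. Without cells with other markers 740 genes were higher and 441 lower, and sterol synthesis stood at 0.14. Among other lists in that setting, histones stood at 2.98, resting genes at -0.66, interferon-stimulated genes at -0.69 and T cell receptor response at -0.80. With at least 50 UMIs 606 genes were higher and 190 lower, and with at least 1 UMI 3040 and 744.

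The next 3 settings were added after seeing the data. For the 26 cells with 1 matched cell within 10% of their depth (median 5439 against 5438 UMIs), 197 genes were higher and 40 lower, and medians were 1.40 for replication, 0.33 for nucleotide synthesis, 2.61 for APC/C, -0.28 for G1, 1.82 for effector Treg, -0.017 for resting, 0.22 for T cell receptor response and -0.012 for interferon-stimulated genes. For the 15 cells with 5 such matched cells, 260 were higher and 135 lower, and the medians were 1.56 for replication, 0.15 for nucleotide synthesis, 1.34 for APC/C, 1.37 for chromatin, 1.025 for tubulin, 0.70 for core Treg, 2.06 for effector Treg, 0.73 for TNF receptors, 0.34 for T cell receptor response, 0.30 for IL-2 and -0.093 for interferon-stimulated genes. Without the 27 cells with Ccr10, 679 genes were higher and 331 lower, against 994 and 438 with them, and histones stood at 2.93 and DNA damage at 0.24.

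The lymph node share of cycling cells was 7.21% with 2 or more and 3.13% with 5 or more rule UMIs, 5.20% with a UMI minimum of 3000 and 2.13% thinned. Thinned, the tumour share was 22.85%, and cycling shares were 23.1% of cells with and 1.88% of cells without Ccr10. No paired analysis was possible because each tissue has 1 library. Depth limits the sparse genes, such as Foxp3 and Il10.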
